A study of Mus musculus with 12 samples.

Results

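The genes of the mouse mitochondrial genome were read from a table of liver fragment counts as every gene name beginning with mt-. These were 37 of 46882 gene names, made up of 13 protein-coding genes, 2 ribosomal RNA (rRNA) genes and 22 transfer RNA (tRNA) genes. Libraries came from flash-frozen livers of C57BL/6 mice aged 6 to 8 weeks, of which 6 were wild-type (WT) and 6 were A1cf -/- (KO). A1CF binds RNA and was named as a cofactor of APOBEC1, the enzyme that edits C to U in Apob transcripts of intestine and rodent liver. The design text calls the 6 libraries of a group biological replicates, and the libraries are named here by genotype and by the number in their titles. No label gives the deleted part of A1cf or whether the deletion was limited to one cell type. The labels name a TruSeq RNA kit applied to 1 µg of total RNA, and whether poly(A) RNA was selected is not given in the sources used here.

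The mitochondrial genome is a small circle transcribed from both strands into long precursor RNAs. Endonucleases release the tRNAs that lie between the mRNAs and rRNAs, after which the mRNAs receive short poly(A) tails, the tRNAs a CCA end, and nuclear-encoded proteins decide how long each RNA lasts. The mRNAs encode subunits of respiratory complexes I, III and IV and of ATP synthase, while the rRNAs and tRNAs serve the organelle's own ribosomes. Hepatocytes are rich in mitochondria, and mitochondrial mRNAs are among the most abundant RNAs of liver.

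The sequences of the tRNA genes that the comparison of genotypes turned on are shown first, since 2 of them lay past the test's threshold and the other, for the same amino acid as the first, lay on the opposite side of 0. They were read from the GENCODE M21 transcripts of the GRCm38 (mm10) build, 5′ to 3′, with the anticodon in capitals. All 3 lie on the plus strand, mt-Tl1 at chrM:2676-2750, mt-Tm at chrM:3845-3913 and mt-Tl2 at chrM:11671-11741. 
mt-Tl1: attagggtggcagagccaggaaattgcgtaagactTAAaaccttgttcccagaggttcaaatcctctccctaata
mt-Tm: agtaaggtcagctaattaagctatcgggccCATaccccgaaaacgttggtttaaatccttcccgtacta
mt-Tl2: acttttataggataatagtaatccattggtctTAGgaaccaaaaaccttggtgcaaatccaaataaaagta
The leucine tRNAs mt-Tl1 (UUR codons) and mt-Tl2 (CUN codons) matched at 41 of 81 aligned columns (50.6%). mt-Tm, the mitochondrial methionine tRNA, starts 2 bases after mt-Tq and touches mt-Nd2 with 0 bases between. mt-Tl1 touches both mt-Rnr2 and mt-Nd1 with 0 bases between.

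A second set of sequences bears on what the counts of the protein-coding genes mean. A stretch of 4653 bases, mitochondrial positions 6390 to 11042, is bounded by near-identical matches to 7 gene models on the minus strand of chromosome 1. These gene models span chr1:24611535-24616197, and the stretch is called the copied stretch here. Most of mt-Atp8 and the tRNA genes in it lie between the matches, where the chromosome 1 sequence was not read. The first 30 bases of mt-Nd3 (chrM:9459-9488, plus strand) and of its copy Gm28438 (chr1:24613090-24613119, minus strand) hold the pair's single mismatch over 345 aligned bases, T3C counted from the first base of mt-Nd3 and printed in capitals. 
mt-Nd3: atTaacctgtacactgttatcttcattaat
Gm28438: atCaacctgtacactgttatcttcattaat
mt-Co2, mt-Atp6, mt-Co3 and mt-Nd4l matched Gm28661, Gm10925, Gm28437 and Gm10222 at 100% over 681, 678, 783 and 294 bases. The first 876 bases of mt-Nd4 matched Gm28439 at 100%, and the last 483 bases of mt-Co1 matched Gm29216 at 99.8%. By its default the counting tool leaves out reads that map to several places, and it leaves out fragments that overlap several genes. A fragment from the copied stretch that fits both places equally well could therefore not be counted to either.

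In all, 11 mitochondrial genes lay wholly inside the copied stretch (6 protein-coding and 5 tRNA genes), 2 lay partly inside (mt-Co1 with 31.3% and mt-Nd4 with 63.6% of their length) and 24 lay outside. More distant copies were annotated on chromosome 2 for mt-Nd2 (Gm13339, 96.7% identity), mt-Co1 (Gm13340, 97.6%) and mt-Co2 (Gm13341, 95.9%), and on chromosome 13 for mt-Nd5 (Gm4076, 95.2%).

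Total counts per library ran from 22129092 (KO 584) to 51082317 (KO 588), and 13706 genes were abundant enough to be tested. A1cf stood at 50.9 ± 2.26 CPM in WT and 10.6 ± 1.55 in KO (SD, n = 6), with no overlap of the groups. CPM are counts scaled to a common total by library size and TMM factor. Its log2 fold change was -2.26 (SE 0.09, adjusted p = 1.1e-08 by edgeR's quasi-likelihood fit, Benjamini-Hochberg adjusted). The 7 hepatocyte markers (Alb, Apoa1, Ttr, Serpina1a, Hnf4a, Cps1 and Tat) summed to between 79212 and 108526 CPM in every library, and the muscle genes Acta1, Ckm and Myh1 were at 0 in all of them. Of all tested genes 3.82% (523) passed the threshold of 0.05, 236 of them higher in KO (1.72%) and 287 lower (2.09%). With library totals in place of TMM scaling the split was 266 higher and 139 lower, and the median log2 fold change of all tested genes moved only from 0.01 to 0.06. In such whole-tissue RNA, fewer cells of a type and less RNA per cell cannot be told apart.

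Mitochondrial genes took up overlapping shares of the libraries in both genotypes, and single libraries differed far more than the genotype means did. The 37 genes together made up 5.23% ± 0.742 (SD, n = 6) of all counts in WT, from 4.08% through a median of 5.54% to 5.85%. In KO they made up 5.14% ± 0.881 (SD, n = 6), from 3.69% in KO 602 through a median of 5.33% to 5.91% in KO 584. The KO libraries thus spanned the whole WT range on both sides. The sum holds counted fragments only, so fragments of the copied stretch that could not be counted are missing from it. It is not the mitochondrial share of all liver RNA. No test was run on this sum.

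Nearly all of that share was mRNA. The 13 protein-coding genes held 5.12% ± 0.737 of counts in WT and 4.999% ± 0.891 in KO, the 2 rRNA genes 0.0957% ± 0.0138 and 0.123% ± 0.0224, and the 22 tRNA genes 0.0179% ± 0.00196 and 0.0178% ± 0.00212 (SD, n = 6 each). The groups overlapped in each class. For rRNA the highest WT library (0.111%, WT 573) lay inside the KO range of 0.102% to 0.157%, and WT 776 was lowest of all at 0.0720%. For tRNA, KO 780 was highest at 0.0219%.

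**Figure D1:**
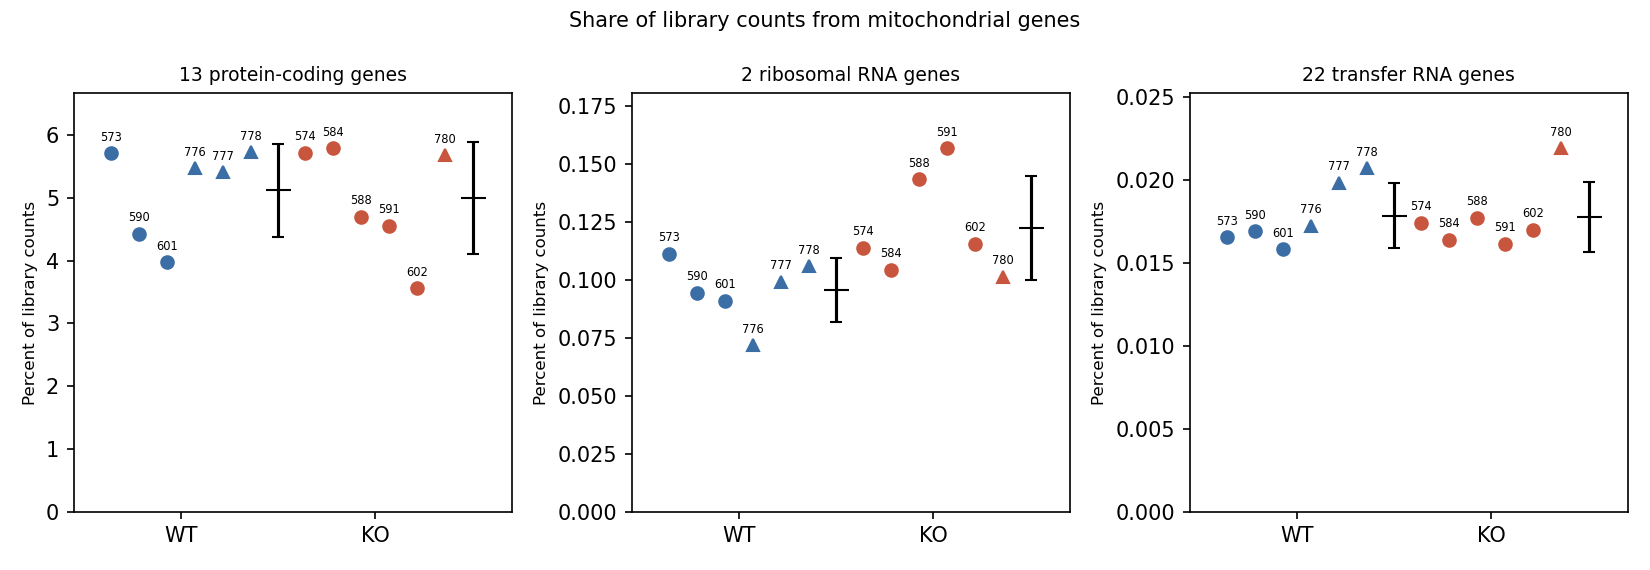
Percent of each library's counts (vertical axes, starting at 0) from the 13 protein-coding, 2 rRNA and 22 tRNA genes of the mitochondrial genome. Points are single libraries with their numbers (circles, numbers 573 to 602; triangles, 776 to 780), and the black marks are the mean ± SD of 6 libraries. Protein-coding shares fall into a higher and a lower set of libraries in both genotypes, and KO 588 and KO 591 hold the highest rRNA shares.

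Library numbers fell into 573 to 602 (3 WT, 5 KO) and 776 to 780 (3 WT, 1 KO), and no label says what the numbers stand for. Within 573 to 602 the share of the 37 genes was 4.82% on average in WT and 5.01% in KO. Within 776 to 780 it was 5.64% in WT and 5.80% in the single KO library. In both ranges the KO mean was the higher one, against the pooled order, and each of these differences was smaller than the SD within a genotype.

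The mRNAs of complex I, complex III, complex IV and ATP synthase differed greatly in counted level. Among the 7 that lie outside or partly outside the copied stretch, mt-Co1, the catalytic subunit of cytochrome c oxidase (complex IV), was highest at 17872 ± 1657 CPM in WT and 17244 ± 2468 in KO (SD, n = 6). mt-Cytb, the only complex III subunit of this genome, followed at 10689 CPM in WT and 9728 in KO. The complex I subunits mt-Nd2, mt-Nd1, mt-Nd4, mt-Nd5 and mt-Nd6 stood at 7162, 6198, 4404, 3523 and 1966 CPM in WT and at 6769, 5634, 4185, 3422 and 1992 in KO. In WT these 7 mRNAs had 33.8% (mt-Co1) to 3.70% (mt-Nd6) of all mitochondrial counts.

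Per length, the mean level over 12 libraries was 11364 ± 1315 CPM per kb for mt-Co1, 8924 ± 1346 for mt-Cytb, 6711 ± 912 for mt-Nd2 and 6182 ± 943 for mt-Nd1 (SD, n = 12). It was 3813 ± 596 for mt-Nd6, 3117 ± 417 for mt-Nd4 and 1904 ± 386 for mt-Nd5. This order held in 12 of 12 libraries for each pair of neighbours, although mt-Nd2 and mt-Nd1 differed on average by less than their SD between libraries. With the length taken only outside the copied stretch, mt-Co1 was at 16533 and mt-Nd4 at 8556 CPM per kb, which moved mt-Nd4 from below mt-Nd6 to above mt-Nd2. mt-Nd6 is the only mRNA on the minus strand, and the counting command set no strand option, so its reads and those of RNA from the opposite strand cannot be told apart.

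The 6 mRNAs wholly inside the copied stretch were counted at a small fraction of these levels. mt-Nd3 was at 26.3 CPM per kb, mt-Co3 at 19.2, mt-Co2 at 12.7, mt-Atp6 at 11.1, mt-Atp8 at 6.42 and mt-Nd4l at 2.42 (means of 12 libraries). mt-Co2 and mt-Co3 encode the other 2 complex IV subunits made in mitochondria, mt-Atp6 and mt-Atp8 the ATP synthase subunits, and mt-Nd3 and mt-Nd4l membrane subunits of complex I. Together the 6 genes made up 0.00369% of counts in WT and 0.00485% in KO, so nearly the whole mRNA share came from the other 7. mt-Atp8 and mt-Atp6 also overlap each other (from position 7927 to 7969), as do mt-Nd4l and mt-Nd4, and fragments over both members of such a pair are left out.

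**Figure D2:**
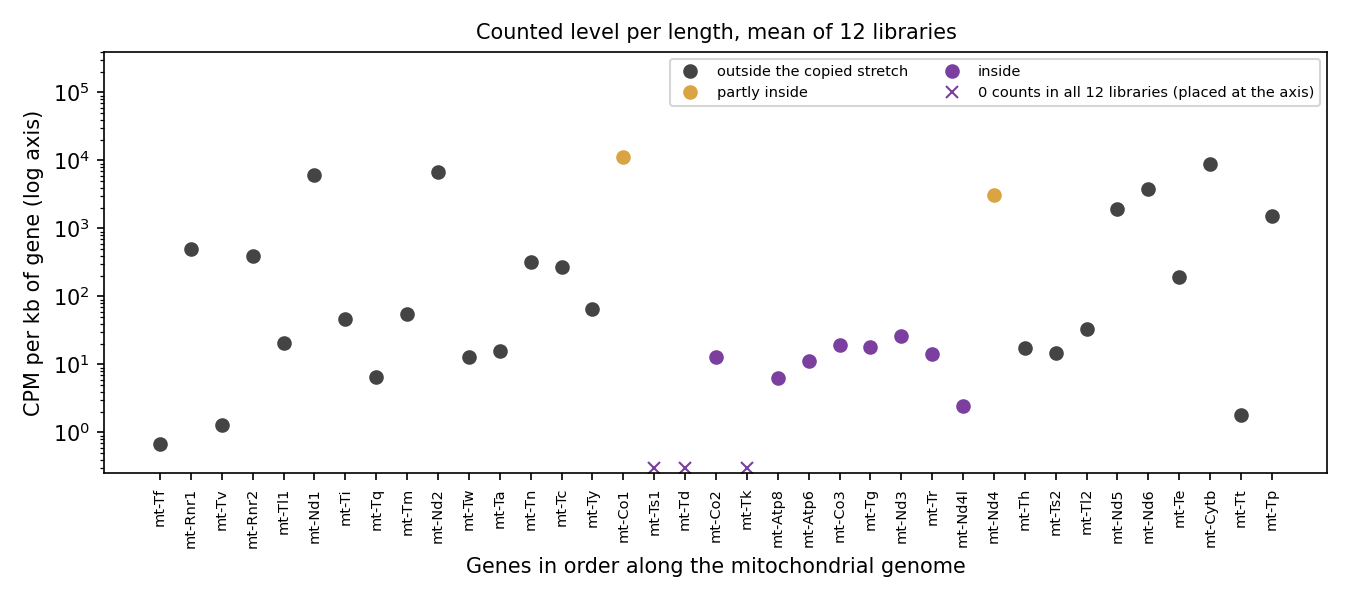
Mean level over 12 libraries in CPM per kb of gene (log axis) for the 37 genes in their order along the mitochondrial genome. Colours give the position outside, partly inside or wholly inside the stretch bounded by near-identical matches on chromosome 1. The genes inside that stretch sit at or below 26.3 CPM per kb, while mt-Co1 beside it is at 11364; crosses are genes with 0 counts everywhere.

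No mitochondrial mRNA passed the test between genotypes. edgeR's quasi-likelihood test called 0 of 13 protein-coding genes, against 3.82% of all tested genes, with 1 of 13 at an unadjusted p under 0.05. DESeq2 called 1 of them (mt-Nd3) and limma-voom called 0. The 7 abundant mRNAs had log2 fold changes of -0.14 (mt-Nd1 and mt-Cytb) to 0.02 (mt-Nd6), with standard errors of 0.13 to 0.17 and adjusted p of 0.61 to 0.96. For mt-Co1 the log2 fold change was -0.05 (SE 0.13). The signs of mt-Co1, mt-Nd2, mt-Nd4, mt-Nd5 and mt-Nd6 turned under at least 1 of 21 alternative settings, while mt-Nd1 and mt-Cytb stayed below 0 in each.

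The 7 abundant mRNAs moved up and down together from library to library. As the mean difference of their log2 CPM from each gene's own mean over 12 libraries, WT 590 stood at -0.14, WT 601 at -0.26, KO 588 at -0.11, KO 591 at -0.23 and KO 602 at -0.40. In each of these 5 libraries 0 of 7 genes lay above their own mean. The other 7 libraries stood at 0.14 to 0.17, with 6 or 7 of 7 genes above. The lower set held libraries of both genotypes, and all of its numbers lay in 573 to 602, as did those of WT 573, KO 574 and KO 584 in the higher set. The genes share each library and its scaling, so they are not independent of one another.

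Between libraries of 1 genotype, the SD of log2 CPM over these 7 genes ran from 0.14 to 0.24 in WT, and in KO from 0.21 to 0.38. Their pooled SD had a median of 0.23, which lay between the quartiles (0.19 and 0.51) of the 125 other genes above 10 log2 CPM. mt-Nd5 had the largest spread of the 7 within KO (SD 0.38).

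**Figure D3:**
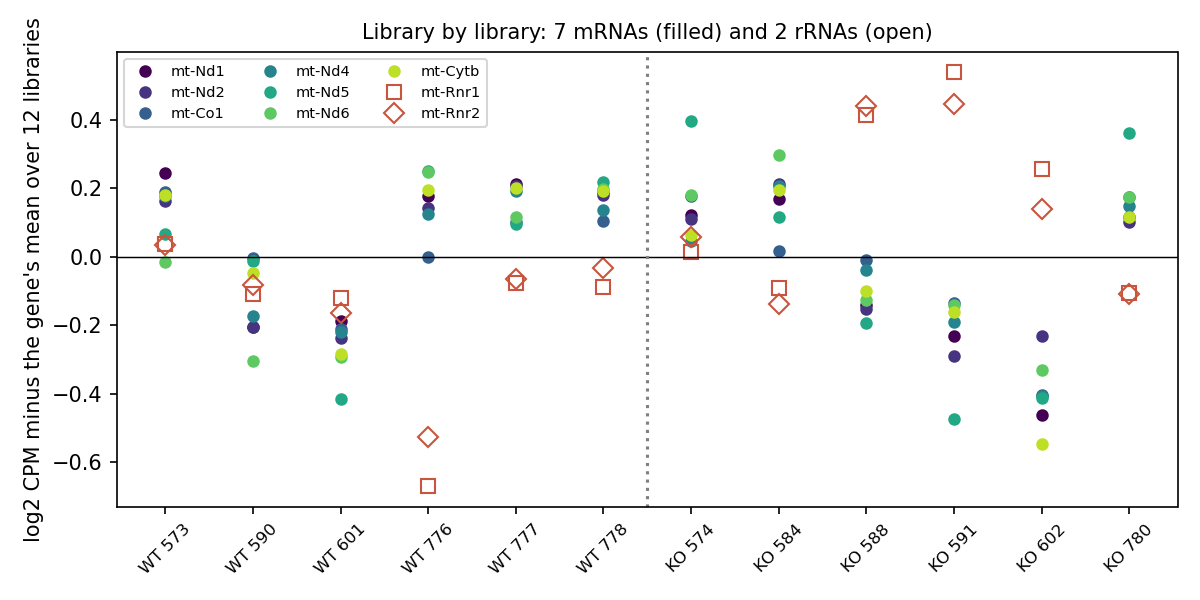
Difference of log2 CPM from the gene's own mean over 12 libraries (vertical axis) in each library, for 7 mRNAs (filled circles) and the 2 rRNAs (open symbols), with WT left and KO right of the dotted line. The mRNAs lie below 0 together in WT 590, WT 601, KO 588, KO 591 and KO 602, while in KO 588, KO 591 and KO 602 the rRNAs lie above 0.

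The ribosomal RNAs did not follow the mRNAs. mt-Rnr1, the RNA of the small mitochondrial ribosomal subunit, ran from 289 CPM through a median of 429 to 471 CPM in WT and from 427 through 506 to 667 CPM in KO. mt-Rnr2, the RNA of the large subunit, ran from 426 through 582 to 627 CPM in WT and from 557 through 656 to 833 CPM in KO. In both genes KO 588 and KO 591 were the highest libraries and WT 776 the lowest, and the groups overlapped.

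Neither rRNA passed the threshold. mt-Rnr1 had a log2 fold change of 0.35 (SE 0.14, adjusted p = 0.18) and mt-Rnr2 one of 0.29 (SE 0.13, adjusted p = 0.23) by edgeR's quasi-likelihood fit. Both had an unadjusted p under 0.05, as had 21.2% of all tested genes, and DESeq2 and limma-voom called neither. Over 21 alternative settings mt-Rnr1 stayed between 0.26 and 0.40, with adjusted p of 0.13 to 0.43, and mt-Rnr2 between 0.22 and 0.34, with adjusted p of 0.16 to 0.48. The rRNAs were counted at 491 and 393 CPM per kb, below each of the 7 abundant mRNAs in 12 of 12 libraries.

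Set against the mRNAs of the same library, rRNA separated the KO libraries among themselves. There were 1.90 ± 0.335 rRNA counts per 100 mitochondrial mRNA counts in WT (SD, n = 6; 1.32 to 2.30) and 2.56 ± 0.775 in KO. KO 588, KO 591 and KO 602 stood at 3.05, 3.45 and 3.25, above every WT library. KO 574, KO 584 and KO 780 stood at 1.99, 1.80 and 1.79, inside the WT range. This ratio also rises where the mRNA share is low. KO 602 and KO 574 had rRNA shares of 0.116% and 0.114% but mRNA shares of 3.56% and 5.71%. KO 588 and KO 591 had the highest rRNA shares as well (0.143% and 0.157%). WT 590 and WT 601, the WT libraries lowest in mRNA, had the highest WT ratios (2.14 and 2.30). Between the rRNAs themselves, mt-Rnr1 had 73.4 ± 3.21 counts per 100 of mt-Rnr2 in WT and 76.7 ± 3.45 in KO.

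The same 3 KO libraries had the highest sums of 8 Kupffer cell and macrophage markers. KO 588, KO 591 and KO 602 were at 317, 257 and 379 CPM, against 110 to 210 CPM in the other KO libraries and 106 to 173 CPM in WT. Within WT the sums did not follow the rRNA ratio. WT 601 and WT 590, with the highest WT ratios (2.30 and 2.14), were at 152 and 154 CPM. WT 776, with the lowest ratio (1.32), was at 155 CPM. All 8 markers were detected and 8 of 8 had a log2 fold change above 0, with a median of 0.65, but 0 of 8 passed edgeR's threshold. Of all tested genes 3.82% passed and 48.2% were below 0, with a median of 0.01. The sum of 5 cholangiocyte markers was 515 CPM in KO 602 and at most 120 CPM elsewhere. The part of these cells in the mitochondrial values was not tested.

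The tRNA genes were the only class with members past the threshold. Of 22, 16 were abundant enough to be tested and 2 of 16 (12.5%) passed, both lower in KO, against 3.82% of all tested genes and 2.09% for lower genes alone. Among the 31 tested mitochondrial genes of any class this was 2 of 31 (6.45%). Counts over a tRNA gene do not tell mature tRNA from precursor RNA, so the level of mature tRNA was not measured. Both genes that passed had a mean level between 0 and 3 log2 CPM, where 3.78% of 4044 tested genes passed, while other tRNA genes lay above or below that range. The median log2 fold change of the 16 tRNA genes was -0.24, with 6 above 0 and 10 below, beside 0.01 for all tested genes and -0.04 for the 31 mitochondrial genes.

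mt-Tl1, the leucine tRNA for UUR codons, had 20 to 84 counts per library. Its WT libraries were at 1.14 (573), 1.69 (590), 2.01 (601), 2.02 (776), 2.75 (777) and 3.005 CPM (778). Its KO libraries were at 0.778 (574), 1.11 (584), 0.846 (588), 0.776 (591), 1.22 (602) and 1.22 CPM (780). The groups overlapped only through WT 573, which lay between the KO libraries.

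mt-Tl1 fell in KO, from 2.10 ± 0.685 to 0.992 ± 0.216 CPM (SD, n = 6), with a log2 fold change of -1.09 (SE 0.24, adjusted p = 0.024 by edgeR's quasi-likelihood fit, Benjamini-Hochberg adjusted). Per 100000 counts of its neighbour mt-Nd1 there were 34.2 ± 10.1 mt-Tl1 counts in WT and 18.1 ± 5.70 in KO, with WT 573 (16.5) below KO 584, KO 602 and KO 780. Within 573 to 602 the mean was 1.61 CPM in WT and 0.947 in KO, and within 776 to 780 it was 2.59 in WT and 1.22 in KO 780. The call was lost with the libraries 573 to 602 alone (log2 fold change -0.76, adjusted p = 0.24). It was also lost without WT 777, WT 778, KO 574, KO 588 or KO 591, at adjusted p of 0.056 to 0.061, and with the number range as a covariate the log2 fold change was -0.85 (adjusted p = 0.039).

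mt-Tm, the methionine tRNA, had 49 to 164 counts per library. Its WT libraries were at 3.81 (573), 4.47 (590), 4.15 (601), 4.93 (776), 6.01 (777) and 5.47 CPM (778). Its KO libraries were at 3.01 (574), 2.10 (584), 3.05 (588), 2.99 (591), 2.27 (602) and 3.74 CPM (780). Every KO library lay below every WT library, which held for 1.97% of all tested genes (3.3% in either direction) and for no other tested mitochondrial gene. The gap between KO 780 and WT 573 was small.

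mt-Tm fell in KO, from 4.81 ± 0.830 to 2.86 ± 0.597 CPM (SD, n = 6), with a log2 fold change of -0.74 (SE 0.16, adjusted p = 0.021 by edgeR's quasi-likelihood fit, Benjamini-Hochberg adjusted). Per 100000 counts of the adjoining mt-Nd2 there were 67.5 ± 9.68 mt-Tm counts in WT and 42.9 ± 9.995 in KO, and on this measure the groups overlapped, since KO 591 (52.9) and KO 780 (50.5) lay above WT 573 (49.3). Within 573 to 602 the mean was 4.14 CPM in WT and 2.68 in KO, and within 776 to 780 it was 5.47 in WT and 3.74 in KO 780. The call was lost with the libraries 573 to 602 alone (log2 fold change -0.61, adjusted p = 0.18). It was also lost without WT 777 or WT 778 (adjusted p = 0.057 and 0.055), and with the number range as a covariate the log2 fold change was -0.60 (adjusted p = 0.025).

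Some markers of other liver cells were higher in KO as a group, where mt-Tl1 and mt-Tm were lower. Single libraries within a genotype did not all show this opposite course. KO 780 had the highest stellate marker sum (346 CPM) and the highest KO level of mt-Tm (3.74 CPM). WT 778 had the highest WT stellate sum (265 CPM) and the highest mt-Tl1 level (3.005 CPM). WT 777, by contrast, had a low stellate sum (148 CPM) and the highest mt-Tm level (6.01 CPM). Of 6 stellate cell markers 2 rose in KO and 6 of 6 had a log2 fold change above 0 (median 0.49, beside 0.01 for all tested genes), and their sum was 145 to 265 CPM in WT against 226 to 346 CPM in KO. Of 6 sinusoidal endothelial markers 1 rose and 6 of 6 were above 0 (median 0.18), with sums of 79.4 to 165 CPM in WT and 128 to 156 CPM in KO. Of all tested genes 1.72% rose. The 7 hepatocyte markers had a median of -0.10, with 7 below 0, or 6 with library totals, and no call. The part of these cells in the tRNA values was not tested.

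mt-Tl2, the leucine tRNA for CUN codons, and mt-Nd3 had the largest differences in the other direction without passing the threshold. mt-Tl2 ran from 1.11 through a median of 1.64 to 2.28 CPM in WT, while KO 588 was at 0.964 CPM and the other KO libraries at 2.88 to 4.67 CPM. Its log2 fold change was 0.93 (SE 0.30, adjusted p = 0.10), and without KO 588 it was 1.13 (adjusted p = 0.012). KO 588, the deepest library, thus lay below every WT library while the other 5 KO libraries lay above every one.

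mt-Nd3, a complex I subunit in the copied stretch, ran from 4.51 through 6.58 to 7.40 CPM in WT, while KO 588 was at 5.65 CPM, KO 780 at 23.1 CPM and the other 4 KO libraries at 10.1 to 12.4 CPM. Its log2 fold change was 0.91 (SE 0.27, adjusted p = 0.076) by edgeR's quasi-likelihood fit, and 1.06 without KO 588 (adjusted p = 0.026). Its nuclear copy Gm28438 was at 0.975 ± 0.366 CPM in WT and 1.10 ± 0.426 in KO (SD, n = 6; log2 fold change 0.16, adjusted p = 0.82). The number range as a covariate (adjusted p = 0.0091 for mt-Nd3, 0.040 for mt-Tl2) and DESeq2 (adjusted p = 0.013 and 0.036) also put both genes past the threshold.

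**Figure D4:**
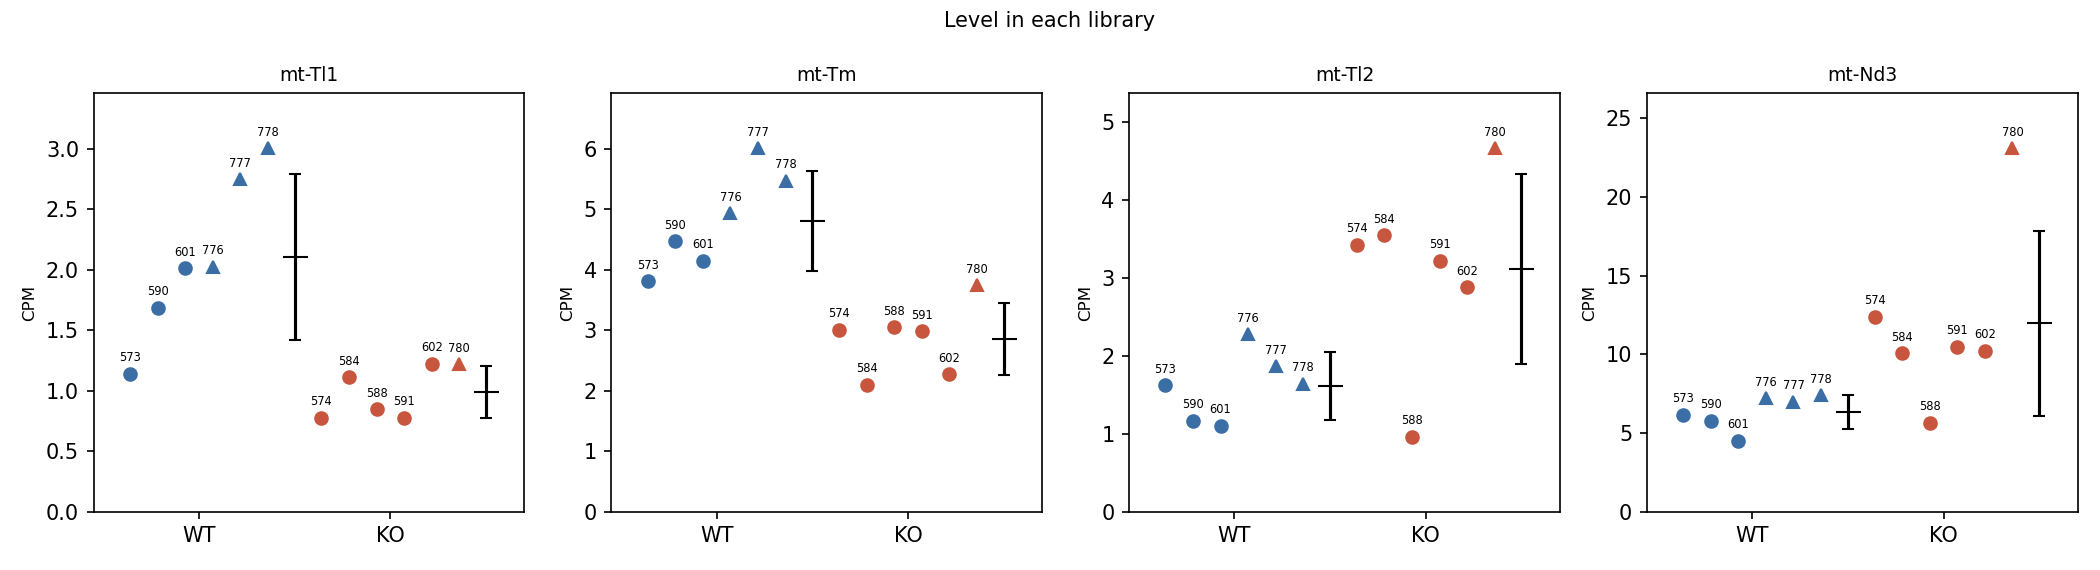
CPM in each library (vertical axes, starting at 0) for mt-Tl1, mt-Tm, mt-Tl2 and mt-Nd3, with WT in blue, KO in red, circles for numbers 573 to 602, triangles for 776 to 780 and black marks for the mean ± SD of 6 libraries. All KO libraries of mt-Tm lie below the WT ones, and KO 588 lies apart from the other KO libraries in mt-Tl2 and mt-Nd3.

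How a tRNA is counted depends on its neighbours, since fragments reaching into an adjoining gene are left out. A fragment counted to mt-Tl1 had to map within its 75 bases. mt-Tp and mt-Tf, at either edge of the control region, each have no gene on one side. mt-Tf had only 0 to 4 counts per library, and the part of neighbours in the levels was not tested. mt-Tp, the proline tRNA, was the highest at 98.8 ± 10.1 CPM in WT and 104 ± 22.5 in KO (log2 fold change 0.08, SE 0.13), or 1514 CPM per kb. Next came mt-Tn, mt-Tc and mt-Te (asparagine, cysteine and glutamate) at 326, 274 and 195 CPM per kb and mt-Ty (tyrosine) at 64.4, and all 5 of these lie on the minus strand. Counting set no strand option, so RNA from the opposite strand can be part of these values. mt-Tc and mt-Tn are 32 bases apart.

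The minus-strand tRNA genes leaned to lower values in KO without any call, with 6 of 7 tested below 0 and log2 fold changes of -0.47 (mt-Ta) to 0.08 (mt-Tp). In all tested genes 48.2% were below 0. Strand here is that of the gene, since the counts do not tell reads of both strands apart. mt-Te was at 15.2 ± 4.01 CPM in WT and 11.7 ± 2.77 in KO (log2 fold change -0.37, SE 0.20, adjusted p = 0.31). mt-Tn was at 24.96 ± 6.40 and 21.3 ± 5.47 CPM, and mt-Tc at 18.7 ± 4.37 and 17.4 ± 4.73 CPM (SD, n = 6). The differences of mt-Tn and mt-Tc were smaller than the SD of either genotype, that of mt-Te lay between its WT and KO SD, and mt-Tc and mt-Tp each turned sign under 1 of 21 settings.

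Among the plus-strand tRNAs, mt-Tw (tryptophan) had a log2 fold change of -0.71 (SE 0.28, adjusted p = 0.16), with 0.806 to 1.65 CPM in WT and 0.460 to 1.22 CPM in KO. mt-Ti (isoleucine) was at -0.35 (SE 0.21), mt-Th (histidine) at 0.08, mt-Tg (glycine) at 0.15, mt-Ts2 (serine) at 0.36 and mt-Tr (arginine) at 0.46 on the log2 scale. None of these passed edgeR's quasi-likelihood test, and mt-Th changed sign under 2 of 21 settings. mt-Tf, mt-Tv and mt-Tt (phenylalanine, valine and threonine) had 0 to 7 counts per library and were not tested. mt-Ts1, mt-Td and mt-Tk (serine, aspartate and lysine), all in the copied stretch, had 0 counts in all 12 libraries, which allows up to 0.0587 to 0.136 CPM at these depths for counting error alone.

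**Figure D5:**
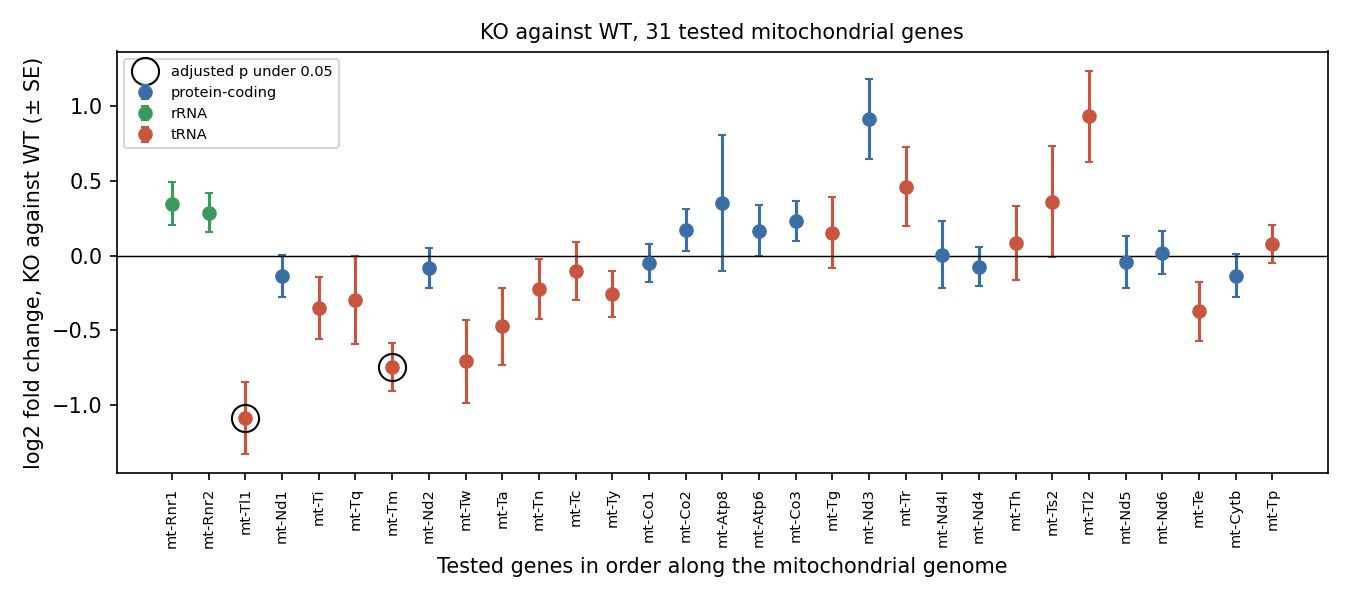
log2 fold change of KO against WT (vertical axis, bars ± SE) for the 31 tested genes in order along the mitochondrial genome, coloured by class; rings mark the 2 genes with an adjusted p under 0.05. The abundant mRNAs lie within 0.14 of 0, mt-Tl1 (-1.09) and mt-Tm (-0.74) lie below, and mt-Nd3 (0.91) and mt-Tl2 (0.93) lie above without a ring.

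RNAs listed as lacking a poly(A) tail were read beside the tRNAs and rRNAs. Whether they lacked a tail in these livers was not measured for any of them. Of 16 such RNAs only the histone mRNAs Hist1h4h and Hist1h1c were abundant enough to be tested, and both rose in KO (log2 fold change 2.11 and 1.02, adjusted p = 0.0044 and 0.047, edgeR), the first in 20 and the second in 8 of 21 alternative settings. The sum of the 16 ran from 35.7 to 51.4 CPM in WT and from 54.3 to 168 CPM in KO without overlap. KO 584 was highest. Hist1h1c made up most of that sum, at 43.6 ± 5.97 CPM in WT and 88.2 ± 42.1 in KO (SD, n = 6), and its own groups overlapped. The sum is thus mostly a reading of this gene and not of RNAs without a tail in general. Of all tested genes 1.72% rose in KO, and 3.3% had groups without overlap, counting both directions. Hist2h3c1 was at 0 in every library. mt-Tl1 and mt-Tm differed in the opposite direction from the histone mRNAs. mt-Rnr1 (0.35), mt-Rnr2 (0.29) and mt-Tl2 (0.93) lay above 0 like them, without passing edgeR's threshold. Of the 16 tested tRNA genes 6 lay above 0 and 10 below. The part of library preparation in these values was not tested.

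The nuclear partners of the mitochondrial mRNAs leaned slightly to lower values in KO, with few calls. Of all tested genes 3.82% passed in either direction and 2.09% passed as lower in KO. Of 36 nuclear complex I genes 0 passed edgeR's test (median log2 fold change -0.11), as did 0 of 4 of complex II (-0.14) and 0 of 9 of complex III (-0.11). For 11 complex IV genes 1 fell, Cox7c, a small structural subunit, from 107 ± 8.00 to 78.9 ± 7.10 CPM (SD, n = 6; log2 fold change -0.44, adjusted p = 0.0078). Of 15 ATP synthase genes 1 fell, Atp5g2, which encodes the ring-forming c subunit (-0.22, adjusted p = 0.046), and 15 of 15 were below 0 (median -0.15), against 48.2% of all tested genes. With library totals in place of TMM, 12 of 15 were below 0 and Atp5g2 did not pass (adjusted p = 0.13), while Cox7c still did (0.046). Of the 36 complex I genes 30 were below 0 with TMM and 22 with library totals. For complexes II, III and IV the counts below 0 (4, 6 and 10) were the same under both. Over 21 alternative settings Atp5g2 passed in 6 and Cox7c in 20. In complexes II, III and I, the gene of each nearest to the threshold was Sdhd (-0.42, adjusted p = 0.055), Uqcrc2 (-0.37, adjusted p = 0.064) and Ndufa8 (-0.22, adjusted p = 0.11), respectively.

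The 75 nuclear respiratory chain genes together held 1.18% ± 0.0768 of counts in WT and 1.12% ± 0.119 in KO. For each of their counts there were 4.32 ± 0.480 mitochondrial mRNA counts in WT and 4.48 ± 0.658 in KO (SD, n = 6). The mitochondrial side of this ratio came nearly wholly from the 7 mRNAs outside or partly outside the copied stretch. On this measure, the balance of counted transcripts from the 2 genomes differed between genotypes by less than it did between libraries.

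Genes that maintain, transcribe, process and translate the mitochondrial genome were mostly without a call, beside the 3.82% of all tested genes that passed. Of 25 genes of mitochondrial DNA maintenance and transcription 1 rose, Mterf1b (0.69, adjusted p = 0.044), whose reads are uncertain because Mterf1a is a close paralog. That list's median was 0.02 and the next one's -0.02, and with library totals the latter turned to 0.03. Of 36 genes of RNA processing and stability 1 fell, Fastkd3, a FASTK-family protein of mitochondrial mRNA metabolism, from 5.34 ± 0.679 to 3.69 ± 0.175 CPM (-0.53, adjusted p = 0.014). Of 76 tested mitoribosome proteins 1 fell, Mrpl40 (-0.29, adjusted p = 0.024), and 65 were below 0 (median -0.09), or 52 with library totals, against 48.2% of all tested genes. Fastkd3 passed in 20 and Mrpl40 in 13 of 21 alternative settings, Mterf1b in 6 of 20.

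Of 34 aminoacyl-tRNA synthetases and translation factors of mitochondria, 2 fell, where 2.09% of all tested genes fell. These were Qrsl1, a subunit of the enzyme that makes glutaminyl-tRNA (log2 fold change -0.53, adjusted p = 0.0097), and Vars2, the valyl-tRNA synthetase (-0.31, adjusted p = 0.044, edgeR). Qrsl1 passed in 20 of 21 alternative settings and Vars2 in 8, and the median of the list was -0.07. The other 32 genes did not pass.

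The nuclear gene models that copy mitochondrial sequence took 0.0107% of counts in WT and 0.0131% in KO. Of 11 such models 10 were tested, and 0 passed edgeR's test, with a lowest adjusted p of 0.26. All 10 had a log2 fold change above 0, between 0.16 and 0.38, and the 6 mRNAs of the copied stretch ran from 0.01 (mt-Nd4l, which turned sign under 6 of 20 settings) to 0.91 (mt-Nd3). Gm28661 was at 6.21 ± 2.03 CPM in WT beside 8.19 ± 1.74 CPM for mt-Co2, and Gm10925 at 7.03 ± 1.76 beside 7.11 ± 1.71 for mt-Atp6 (SD, n = 6). In the copied stretch, fragments that fit the mitochondrial genome and the chromosome 1 copy equally well could not be counted to either. These counts therefore do not give the level of the genes there or of their copies. The source of the fragments that were counted was not tested.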

How the data were processed

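Liver RNA of 6 WT and 6 KO mice was sequenced, and samples were grouped by the genotype in their labels. Per the file headers, the authors counted fragments over GENCODE M8 exons with featureCounts 1.5.0-p2 and deposited raw counts summed by gene name, without options for strand or for reads mapping to several places. STAR, DESeq2 and mm10 are named in the submitters' processing notes, with no settings. The deposited table's gene length, another value per gene, was used for levels per kb.

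Members were all names beginning with mt-. The members and the gene lists were chosen with earlier results of these data known. Counts were filtered with filterByExpr (minimum count 10), scaled by TMM and compared by robust quasi-likelihood in edgeR 4.0.16 (R 4.3.3), genotype alone, with Benjamini-Hochberg adjustment over 13706 genes. SE is the log2 fold change divided by the square root of F. Copies were found with blastn 2.17.0 (at least 95% identity over 200 bases) among GENCODE M21 transcripts, where all 37 genes keep their positions. The fit was tested on simulated data. Limits for a count of 0 use 3 counts over the library total, without TMM, and cover counting error only. Percent shares likewise use library totals without TMM. Alternatives were RLE scaling, library totals, scaling without mitochondrial genes, other filters, DESeq2 1.42.0, limma-voom (limma 3.58.1), the library number range as covariate or restriction, and each library left out. Named were all 37 genes, A1cf, the copies, and from each nuclear list the members past the threshold or, where none passed, those nearest to it.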

Additional observations from a re-analysis of the deposited data

Results flagged for a closer look

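Within groups of 6, a library was looked for whose gap to the nearest other library took up an unusually large part of the group's range. This was found in 5 of 70 groups of values, where about 5% would be found by chance.

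mt-Rnr1 was at 289 CPM in WT 776 and at 422 to 471 CPM in the other WT libraries. mt-Tw was at 1.22 CPM in KO 602 against 0.460 to 0.673 CPM in the other KO libraries. KO 780 stood apart in mt-Tr (1.93 CPM against 0.728 to 1.16 CPM), in mt-Tp (147 CPM against 79.3 to 103 CPM) and in the summed share of the 22 tRNA genes (0.0219% against 0.0162% to 0.0177%). mt-Tp is the largest part of that share, so the last 2 are not separate observations. KO 780 is the only KO library numbered 776 to 780.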

How the results depend on the processing

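Of 100 recomputed counts and class shares, 85 stayed within 1.5 times the count or within the spread between libraries, 3 were stronger and 12 weaker. The KO minus WT difference in mean log2 share crossed 0 for all 37 genes (-0.10 to 0.06), for the mRNAs and for the tRNAs (-0.07 to 0.05), and stayed above 0 for the rRNAs (0.27 to 0.40). DESeq2 called 4 mitochondrial genes and 1172 genes in all, against 2 and 523, and the number range as a covariate called 4. With the libraries 573 to 602 alone, edgeR's quasi-likelihood test called 0 mitochondrial genes (5 at an unadjusted p under 0.05) and 57 genes in all. Leaving out 1 library at a time gave 0 to 3 mitochondrial genes and 266 to 638 genes in all. The count was 0 without WT 777 (5 at an unadjusted p under 0.05, 266 genes in all) or without WT 778 (6 and 294). It was 1, mt-Tm, without KO 574 (315 in all) or KO 591 (324), and 3 without KO 588 (319). Without WT 573, the whole-table count was 312. Fewer libraries entered these fits, and the cause was otherwise not tested. mt-Tl1 passed in 15 and mt-Tm in 18 of 21 alternatives, with log2 fold changes of -1.22 to -0.76 and -0.83 to -0.60 and adjusted p of 0.0011 to 0.24 and 4.8e-04 to 0.18. mt-Nd3 and mt-Tl2 passed in 3 each. No paired analysis was possible because the groups share no library number. Counts of 20 to 84 for mt-Tl1 limit its precision.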
